A study of Sus scrofa with 6 samples.

Results

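Matrix proteases and their inhibitors were examined in the ampulla of the pig (Sus scrofa) oviduct, the wide segment in which eggs are fertilised. The group was defined by gene symbol, as a list of 41 genes of the matrix metalloproteinase, ADAM, ADAMTS, plasminogen, serpin and cathepsin families with their inhibitors. Of these, 40 had a row among the 35670 genes of the deposited count table, and 37 of the 40 had enough counts to be tested. TIMP2 had no row under its symbol and was not analysed here. The samples were ampulla tissue of female pigs at the early luteal stage (3 libraries) and at the post-ovulatory stage (3 libraries), and the labels name no strain, age, treatment or genotype for either stage. All 6 libraries were made from whole tissue, so fewer cells of a type and less RNA per cell cannot be told apart in any value below. No source says whether the libraries of a stage came from separate animals; the p-values therefore reflect only the spread among these 6 libraries, which could be technical.

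Matrix metalloproteinases are zinc enzymes that are made as inactive precursors and cut collagens and other matrix proteins once activated. Tissue inhibitors of metalloproteinases (TIMPs) block their active sites, ADAM proteases release membrane proteins from the cell surface, and ADAMTS proteases are secreted enzymes that trim procollagens and proteoglycans. The plasminogen activators turn plasminogen into plasmin, a serine protease that cuts fibrin and can activate metalloproteinase precursors, and cathepsins degrade proteins mainly in lysosomes. In the female tract these systems are known for ovulation, for menstruation in species that menstruate, and for remodelling of stroma over the cycle.

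Transcripts of the collagen-processing enzyme ADAMTS2 and of the metalloproteinases MMP2 and MMP14 stood lower in early luteal than in post-ovulatory ampulla on average, those of ADAM9 and CTSL stood higher, and the 4 metalloproteinase inhibitors had log2 fold changes of -0.42 to -0.062. None of these differences passed the test. No gene of the 37 passed the quasi-likelihood test of edgeR at the threshold of 0.05 on the adjusted p, and 0% of all 17920 tested genes did (the lowest Benjamini-Hochberg adjusted p was 0.680 among the 37 and 0.108 among all). At an unadjusted p under 0.05 stood 2 of the 37 (MMP2 and ADAMTS2, both lower in early luteal tissue), against 7.11% of all tested genes. DESeq2 called 0 of the same 37 genes at an adjusted p under 0.05, while it called 0.986% of all genes. At an unadjusted p under 0.05 DESeq2 had 4 of the 37, against 2251 of all 30048 genes with a count, as its fit had no filter on low counts. The 3 early luteal libraries lay entirely above or below the 3 post-ovulatory ones in 4 of the 37 (10.8%), against 17.2% of all tested genes. MMP14 and ADAMTS2 lay below (9.57% of all tested genes did) and ADAM9 and CTSL above (7.61%). Early luteal tissue had the higher fitted level in 12 genes (32.4%, against 48.2% of all tested genes) and the lower one in 25, and their median log2 fold change was -0.13, beside -0.027 over all tested genes.

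**Figure D1:**
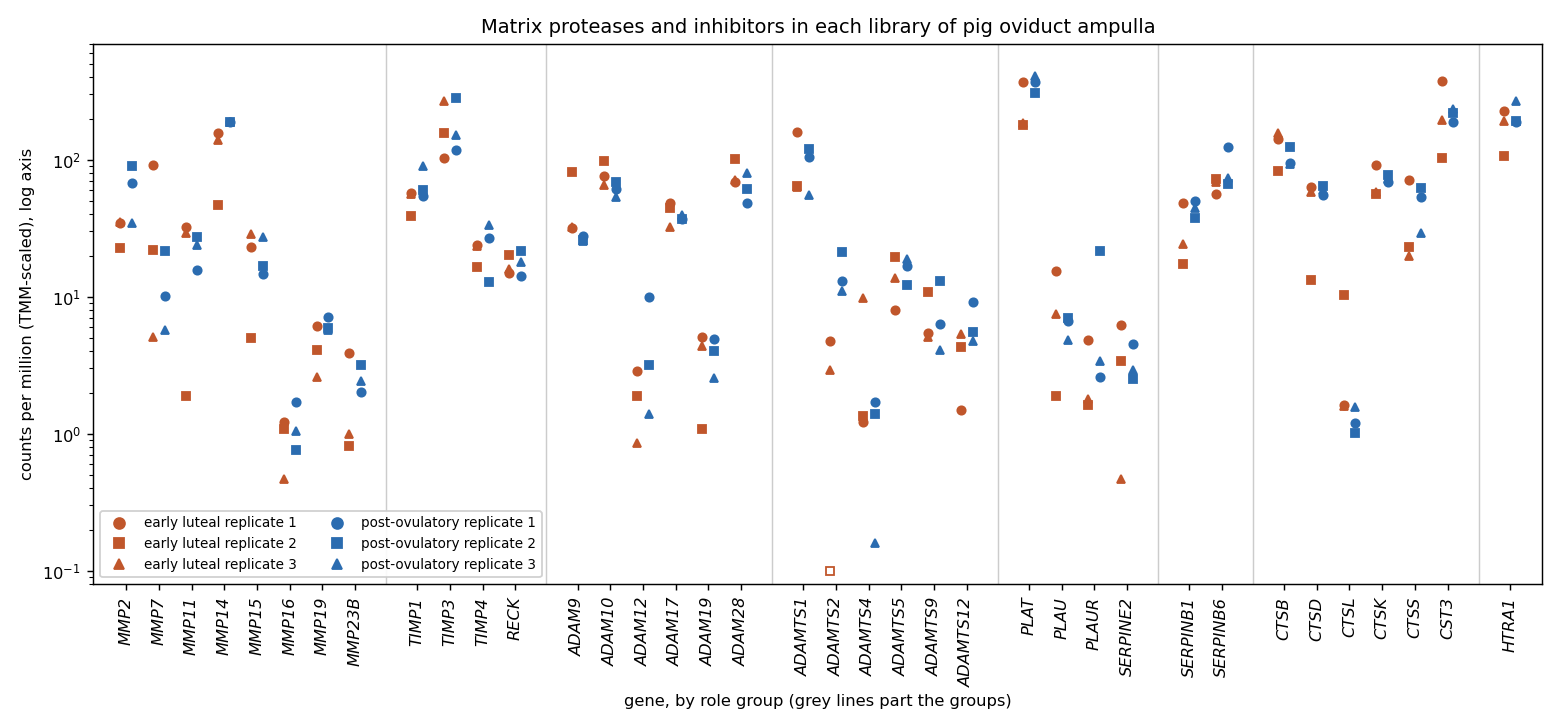
CPM (counts over the TMM-scaled library total, times 1e6; log axis) of the 37 tested genes in each library, with early luteal libraries left of post-ovulatory ones for every gene and grey lines between role groups. Symbols mark the replicate number and the open square stands for a count of 0 (ADAMTS2 in early luteal replicate 2), drawn at the foot of the axis; the colours of the 2 stages are intermingled in 33 of the 37 genes.

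Libraries held 7370723 to 30954222 counts, so that a count of 3 corresponded to 0.0959 CPM in the deepest library and 0.406 CPM in the library where it weighed most. Across tested genes early luteal replicate 2 was the least like the rest, with a correlation of 0.802 to 0.865 to each other library, where the remaining pairs reached 0.882 to 0.945. Of 10 ciliated cell markers with a row, 10 had counts in every library. So did 7 of 8 markers of the secretory epithelium (not MSX1), 12 of 12 of stroma and 13 of 13 of smooth muscle and pericytes. The summed level of the 12 stromal markers was 1447, 1417 and 1424 CPM in early luteal replicates 1, 2 and 3 and 2706, 3248 and 1696 CPM in post-ovulatory replicates 1, 2 and 3, with no overlap. Taken singly, 10 of the 12 were lower and 2 (DPT and FN1) higher in early luteal tissue, and only 5 did not overlap. Collagens weighed heavily in the sum: COL1A1 averaged 110 CPM at the early luteal and 426 CPM at the post-ovulatory stage, and COL3A1 169 and 493 CPM. Markers of smooth muscle and pericytes summed to 2217, 11772 and 14758 CPM in the early luteal and 5228, 8854 and 4595 CPM in the post-ovulatory replicates. Taken singly, 10 of the 13 were higher and 3 (PDGFRB, CSPG4 and ACTG2) lower in early luteal tissue. Among the early luteal libraries RGS5 and PDGFRB were highest in replicate 1, where the sum was lowest. The part of these cell types in the values below was not tested.

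Among the matrix metalloproteinases, 7 of 8 tested genes stood lower at the early luteal stage (median log2 fold change -0.38), and none passed the threshold. MMP2, gelatinase A (RefSeq gene on Sscrofa11.1, chromosome 6, 30059247 to 30087031), stood at 34.3, 22.9 and 34.9 CPM in early luteal replicates 1, 2 and 3, against 67.2, 89.8 and 34.5 CPM in post-ovulatory replicates 1, 2 and 3. The early luteal libraries were close together, and post-ovulatory replicate 3 lay among them, so the stages overlapped. The mean was 30.7 ± 6.77 CPM at the early luteal and 63.8 ± 27.8 CPM at the post-ovulatory stage (SD, n = 3 each), a log2 fold change of -1.05 ± 0.38 (SE; edgeR adjusted p = 0.680, unadjusted p = 0.024). Post-ovulatory replicates 2 and 3 had the highest and the lowest level of MMP2 in their stage, and likewise of the summed stromal markers.

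MMP14, the membrane-bound enzyme that activates the MMP2 precursor at the cell surface (chromosome 7, 76174502 to 76185931), stood at 156, 47.0 and 140 CPM in early luteal tissue and at 187, 188 and 188 CPM in post-ovulatory tissue. Every early luteal library was below the post-ovulatory ones, which were nearly equal, and early luteal replicate 2 was far below the other two. The log2 fold change was -0.71 ± 0.42 (SE; edgeR adjusted p = 0.736), and -0.34 without early luteal replicate 2. The nearest libraries of the 2 stages, early luteal replicate 1 and post-ovulatory replicate 1, were at 156 and 187 CPM.

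MMP7, matrilysin, a small metalloproteinase made by glandular epithelia, was the only one of the 8 tested metalloproteinases whose fitted level was higher at the early luteal stage. It stood at 91.1, 21.8 and 5.12 CPM in early luteal and at 10.2, 21.6 and 5.75 CPM in post-ovulatory replicates. Its spread within the early luteal stage was 17.8-fold between the highest and the lowest library, and early luteal replicate 1 alone exceeded all post-ovulatory ones clearly (log2 fold change 1.67 ± 0.92, SE; edgeR adjusted p = 0.716). The summed secretory epithelial markers stood at 2660, 3453 and 4296 CPM in early luteal and 9002, 1808 and 12971 CPM in post-ovulatory replicates. The order of that sum depended largely on 1 gene, OVGP1, at 292, 1017 and 2356 CPM against 7302, 156 and 10688 CPM. The part of this epithelium in the level of MMP7 was not tested.

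MMP11, stromelysin 3, stood at 32.5, 1.90 and 29.3 CPM in early luteal and 15.6, 27.2 and 23.9 CPM in post-ovulatory replicates. MMP15, a membrane-type enzyme, stood at 23.1, 5.01 and 28.6 CPM against 14.7, 16.7 and 27.5 CPM. In both genes early luteal replicate 2 was the lowest of the 6 libraries, and the other early luteal libraries lay within or above the post-ovulatory ones. MMP16, MMP19 and MMP23B stayed at 7.07 CPM or less in every library, with log2 fold changes of -0.36, -0.55 and -0.39 that were all smaller than or close to their SE (0.74, 0.52 and 0.75).

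Interstitial collagenase and stromelysin 1 were at or near 0 in the ampulla. MMP1 had a count of 0 in all 6 libraries, which allows up to 0.0959 to 0.406 CPM depending on the library and covers counting error only, and MMP3 had 1 count in all, in early luteal replicate 1. MMP9, gelatinase B, a product of neutrophils and macrophages, had 3, 0 and 8 counts in early luteal and 0, 11 and 0 counts in post-ovulatory replicates. Of the 5 neutrophil markers with a row, none had counts in every library, and their sum was 0.135 to 3.22 CPM at the early luteal and 0.799 to 3.13 CPM at the post-ovulatory stage. MMP1, MMP3 and MMP9 did not pass the filter on low counts and were not among the 37 tested genes.

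**Figure D2:**
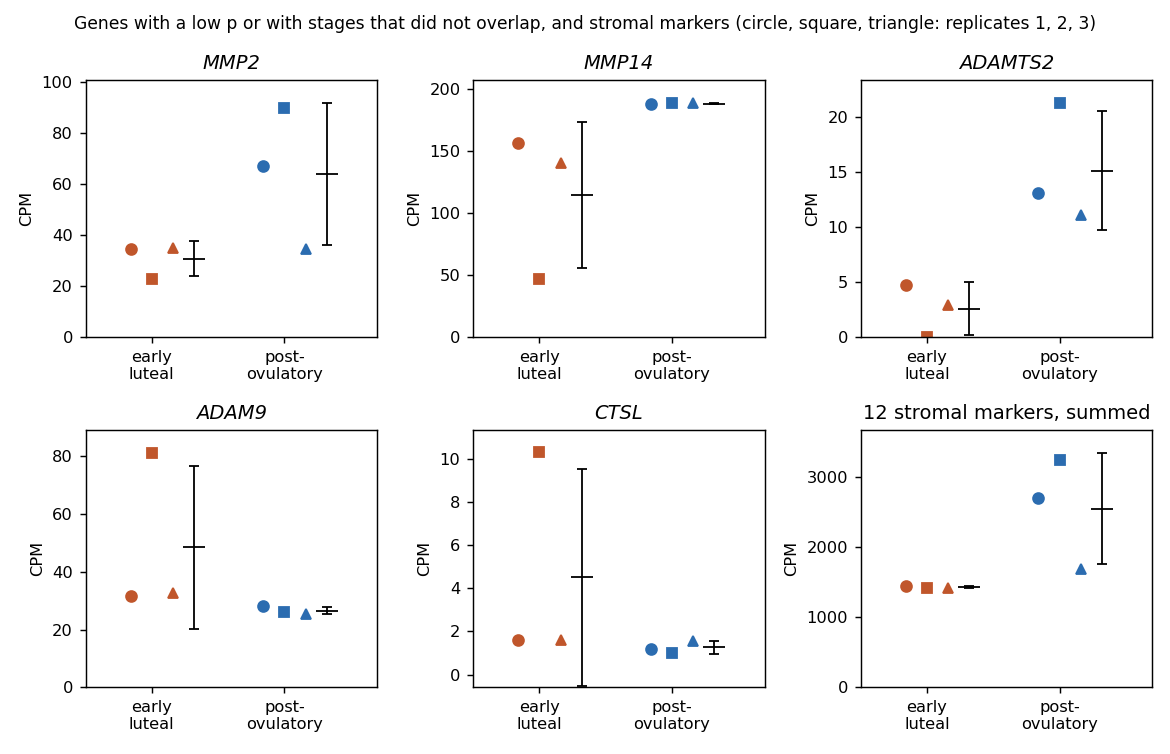
CPM of the 5 genes with an unadjusted p under 0.05 or with stages that did not overlap, and the summed CPM of 12 stromal markers, in each library (coloured points) with the mean and SD of each stage (black; n = 3). MMP14 and ADAMTS2 lay lower in all 3 early luteal libraries, MMP2 overlapped through post-ovulatory replicate 3 (34.5 CPM), and the early luteal means of ADAM9 and CTSL were set by replicate 2 (80.9 and 10.3 CPM).

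The 4 metalloproteinase inhibitors with a row had small fitted differences between the stages. All 4 stood lower in early luteal tissue, by log2 fold changes of -0.42 to -0.062 with a median of -0.13, each overlapping between the stages. TIMP3, the inhibitor that binds to the matrix, stood at 103, 158 and 266 CPM in early luteal and 119, 281 and 151 CPM in post-ovulatory replicates. Its libraries ranged 2.60-fold in early luteal and 2.37-fold in post-ovulatory tissue. In each stage the library with the highest TIMP3 (early luteal replicate 3 and post-ovulatory replicate 2) also had the highest summed smooth muscle and pericyte markers. Early luteal replicate 1 was the lowest of its stage in both. In post-ovulatory tissue TIMP3 was lowest in replicate 1 and the summed smooth muscle and pericyte markers in replicate 3. The log2 fold change of TIMP3 was -0.062 ± 0.44 (SE; edgeR adjusted p = 0.980), and it turned positive when early luteal replicate 1 (0.23), early luteal replicate 2 (0.0049) or post-ovulatory replicate 2 (0.38) was left out, and in limma voom with sample quality weights (0.16).

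TIMP1, a soluble inhibitor of most metalloproteinases, stood at 57.5, 39.0 and 56.5 CPM in early luteal and 54.4, 60.6 and 90.3 CPM in post-ovulatory replicates (log2 fold change -0.42 ± 0.30, SE; edgeR adjusted p = 0.769). Post-ovulatory replicate 3 was the high one, and without it the log2 fold change was -0.17. TIMP4 averaged 21.3 ± 4.29 CPM at the early luteal and 24.4 ± 10.5 CPM at the post-ovulatory stage. RECK, a membrane-anchored inhibitor of several metalloproteinases, averaged 17.0 ± 2.78 CPM and 17.9 ± 3.73 CPM in the same order of stages (SD, n = 3 each), and its highest library exceeded its lowest 1.35-fold in early luteal and 1.53-fold in post-ovulatory tissue.

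ADAM proteases were the role group with most genes on the higher side in early luteal tissue, 4 of 6, at a median log2 fold change of 0.25 and with none past the threshold. ADAM9, a membrane-bound shedding enzyme (chromosome 15, 47523768 to 47601722), stood at 31.7, 80.9 and 32.6 CPM in early luteal and 28.0, 26.1 and 25.5 CPM in post-ovulatory replicates. All early luteal libraries were higher, but 2 of them by little, and early luteal replicate 2 set the mean of 48.4 ± 28.1 CPM (SD, n = 3), which stood beside 26.5 ± 1.30 CPM in post-ovulatory tissue. The log2 fold change was 0.86 ± 0.40 (SE; edgeR adjusted p = 0.685), and 0.27 without early luteal replicate 2.

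ADAM10, the main shedding enzyme of Notch receptors and cadherins, stood at 76.8, 98.8 and 65.3 CPM in early luteal and 61.6, 69.3 and 53.9 CPM in post-ovulatory replicates (log2 fold change 0.38 ± 0.26, SE). ADAM28, expressed in lymphocytes and epithelia, stood at 68.7, 101 and 71.7 CPM against 48.2, 61.3 and 80.0 CPM (0.35 ± 0.29). In both genes early luteal replicate 2 was the highest of the 6 libraries and the stages overlapped. ADAM17, which releases tumour necrosis factor and ligands of the epidermal growth factor receptor, averaged 41.9 ± 8.35 CPM at the early luteal and 37.7 ± 1.48 CPM at the post-ovulatory stage.

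ADAM12 and ADAM19, enzymes of muscle and mesenchyme, were low. ADAM12 stood at 2.90, 1.90 and 0.864 CPM in early luteal and at 9.98, 3.16 and 1.41 CPM in post-ovulatory replicates (log2 fold change -1.35 ± 0.84, SE; edgeR adjusted p = 0.739), and post-ovulatory replicate 1 alone was clearly above the rest. ADAM19 ranged over 1.08 to 5.09 CPM at the early luteal and 2.56 to 4.91 CPM at the post-ovulatory stage.

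The ADAMTS proteases went in both directions, 2 higher and 4 lower in early luteal tissue. ADAMTS2, the enzyme that removes the amino-terminal propeptide of fibrillar procollagens (chromosome 2, 79182901 to 79406879), stood at 4.77, 0 and 2.93 CPM in early luteal and 13.0, 21.2 and 11.06 CPM in post-ovulatory replicates. No early luteal library reached the lowest post-ovulatory one, and early luteal replicate 2 had no count, which allows up to 0.406 CPM there. Its log2 fold change of -2.51 ± 1.02 (SE; edgeR adjusted p = 0.685, unadjusted p = 0.037) was the most negative of the 37 genes, 5.71-fold lower in the fit. The log2 fold change was -3.26 when early luteal replicate 1 was left out and -1.97 when replicate 2 was. Its order over the post-ovulatory libraries, replicate 2 highest and replicate 3 lowest, was also that of the summed stromal markers. MMP14 did not share that order, as it was nearly equal in those libraries (187, 188 and 188 CPM).

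ADAMTS1, an aggrecan- and versican-cutting enzyme that is induced by progesterone in the ovulating mouse follicle, stood at 160, 64.6 and 63.6 CPM in early luteal and 104, 120 and 55.6 CPM in post-ovulatory replicates. The stage means were close (log2 fold change 0.045 ± 0.44, SE), and the sign turned without early luteal replicate 1 (-0.52) or without post-ovulatory replicate 3 (-0.22). ADAMTS5, an aggrecanase encoded 67.1 kb from ADAMTS1 on chromosome 13, stood at 8.05, 19.5 and 13.7 CPM against 16.8, 12.1 and 18.8 CPM. Early luteal replicate 1 was the highest library for ADAMTS1 and the lowest for ADAMTS5.

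ADAMTS4, another aggrecanase, had the most positive fitted change of the 37 genes, from 1 library. It stood at 1.22, 1.35 and 9.77 CPM in early luteal and 1.71, 1.39 and 0.160 CPM in post-ovulatory replicates (log2 fold change 1.97 ± 1.12, SE; edgeR adjusted p = 0.723). Early luteal replicate 3 was high and post-ovulatory replicate 3 low. The summed level of 14 immediate early genes, a list sensitive to handling of the tissue, was also highest and lowest in those libraries. It was 630, 1530 and 2167 CPM in the early luteal replicates and 832, 1167 and 506 CPM in the post-ovulatory ones. Of 13 tested genes of that list, 9 stood higher and 4 lower in early luteal tissue. EGR2 went the other way, lowest in early luteal replicate 3 (2.93 CPM) and highest in post-ovulatory replicate 3 (12.9 CPM). The part of these genes in the level of ADAMTS4 was not tested. ADAMTS9, a versican-cutting enzyme, averaged 7.14 ± 3.20 CPM at the early luteal and 7.82 ± 4.63 CPM at the post-ovulatory stage, and ADAMTS12 3.73 ± 2.02 CPM and 6.52 ± 2.38 CPM in the same order (SD, n = 3 each).

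**Figure D3:**
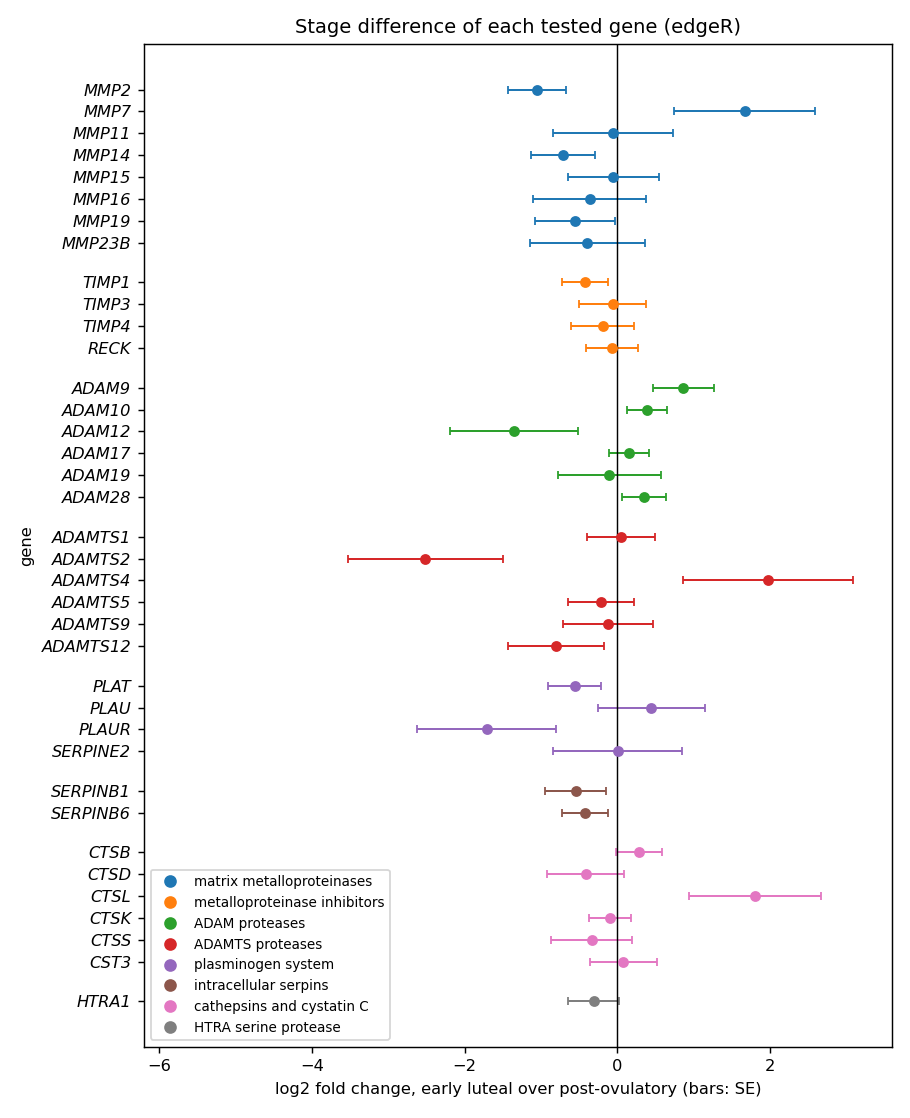
Log2 fold change of early luteal over post-ovulatory tissue for each tested gene, with bars of 1 SE from edgeR's quasi-likelihood fit and colours by role group. ADAMTS2 (-2.51) and ADAMTS4 (1.97) lie at the ends, with long bars, and the 4 metalloproteinase inhibitors lie between -0.42 and -0.062.

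In the plasminogen system, PLAT, tissue plasminogen activator, stood at 372, 179 and 185 CPM in early luteal and 370, 309 and 407 CPM in post-ovulatory replicates. Early luteal replicates 2 and 3 were below all post-ovulatory libraries, whereas early luteal replicate 1 lay among them. Means were 245 ± 109 CPM at the early luteal and 362 ± 49.6 CPM at the post-ovulatory stage (SD, n = 3 each; log2 fold change -0.56 ± 0.35, SE; edgeR adjusted p = 0.738). Without early luteal replicate 1 the log2 fold change was -0.97 (edgeR adjusted p = 0.347).

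PLAU, the urokinase-type activator, stood at 15.5, 1.90 and 7.45 CPM in early luteal and 6.63, 6.95 and 4.83 CPM in post-ovulatory replicates. The early luteal libraries spread 8.15-fold and enclosed the post-ovulatory ones (log2 fold change 0.44 ± 0.70, SE), and the sign turned without early luteal replicate 1 (-0.37). Its receptor PLAUR stood at 4.83, 1.63 and 1.80 CPM against 2.61, 21.6 and 3.42 CPM, with post-ovulatory replicate 2 far above the others (log2 fold change -1.71 ± 0.91, SE; edgeR adjusted p = 0.711). SERPINE2, protease nexin 1, an inhibitor of thrombin and of plasminogen activators, averaged 3.35 ± 2.86 CPM at the early luteal and 3.33 ± 1.07 CPM at the post-ovulatory stage.

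Count ratios within a library, which do not depend on scaling, did not separate the stages. The ratio of PLAT to SERPINE2, not corrected for gene length, was 60.1, 52.9 and 398 in early luteal and 81.4, 122 and 140 in post-ovulatory replicates. The ratio of PLAU to PLAUR was 3.20, 1.17 and 4.15 in early luteal and 2.54, 0.322 and 1.41 in post-ovulatory replicates. For CTSB to its inhibitor CST3 it was 0.374, 0.802 and 0.794 against 0.507, 0.564 and 0.398. Differences in the mean log2 ratio were -0.046, 1.25 and 0.36 in that order of pairs (two-sided exact permutation p = 1, 0.3 and 0.4; Benjamini-Hochberg adjusted over the 3 ratios 1, 0.6 and 0.6), and with 3 libraries against 3 no p below 0.1 was possible.

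SERPINB1 and SERPINB6, serpins that act inside cells against neutrophil and other serine proteases, both stood lower on average in early luteal tissue and overlapped. SERPINB1 stood at 48.8, 17.5 and 24.1 CPM in early luteal and 49.96, 37.8 and 44.6 CPM in post-ovulatory replicates (log2 fold change -0.55 ± 0.40, SE). SERPINB6 stood at 56.5, 71.9 and 69.0 CPM against 124.9, 66.4 and 74.0 CPM (-0.43 ± 0.30). In SERPINB1 early luteal replicate 1 matched the post-ovulatory libraries, and in SERPINB6 post-ovulatory replicate 1 alone was high, with a log2 fold change of -0.11 without it.

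Cathepsins and cystatin C were split evenly, 3 of 6 standing higher and 3 lower at the early luteal stage (median log2 fold change -0.0077). CTSB, a cysteine protease of lysosomes that is also secreted, stood at 141, 82.5 and 156 CPM in early luteal and 95.4, 123 and 93.3 CPM in post-ovulatory replicates (log2 fold change 0.29 ± 0.30, SE). CST3, cystatin C, the secreted inhibitor of cysteine cathepsins, stood at 377, 103 and 197 CPM against 188, 219 and 234 CPM (0.079 ± 0.44). Early luteal replicate 2 was the lowest library in both genes. Early luteal replicates 1 and 3 were the highest for CTSB, whereas for CST3 replicate 1 was the highest and replicate 3 lay among the post-ovulatory libraries, and the log2 fold change of CST3 was -0.50 without early luteal replicate 1.

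CTSD, the aspartic cathepsin, stood at 62.9, 13.3 and 58.1 CPM in early luteal and 55.1, 64.8 and 60.2 CPM in post-ovulatory replicates, so that early luteal replicate 2 alone was away from the rest. CTSK, a collagen-degrading cathepsin, averaged 68.3 ± 19.6 CPM at the early luteal and 73.0 ± 4.46 CPM at the post-ovulatory stage (SD, n = 3 each). CTSS, a cathepsin of macrophages and dendritic cells that lies 10.3 kb from CTSK on chromosome 4, stood at 71.8, 23.0 and 19.7 CPM against 53.4, 62.6 and 29.4 CPM. The summed level of 13 macrophage and dendritic cell markers was 249, 162 and 123 CPM in early luteal and 254, 287 and 121 CPM in post-ovulatory replicates. Within each stage CTSS put the libraries in the same order as that sum. That order of the sum depended on 1 gene, LYZ, at 10.6, 78.0 and 31.1 CPM against 20.0, 56.2 and 4.41 CPM. Without LYZ the order would differ from that of CTSS in both stages. The part of these cells was not tested.

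CTSL, cathepsin L (chromosome 10, 27668523 to 27674705), stood at 1.61, 10.3 and 1.60 CPM in early luteal and 1.19, 1.01 and 1.57 CPM in post-ovulatory replicates. The stages did not overlap, yet early luteal replicate 3 and post-ovulatory replicate 3 were separated by only 1.60 against 1.57 CPM, and early luteal replicate 2 carried the difference (log2 fold change 1.80 ± 0.87, SE; edgeR adjusted p = 0.692; 0.33 without that library). RefSeq gives CTSL also as a synonym of CTSV on the same chromosome (25202360 to 25208058), and the row of CTSV stood at 187, 375 and 281 CPM in early luteal and 314, 328 and 244 CPM in post-ovulatory replicates. Because the 2 are related genes whose reads the counting could split, the level of CTSL is uncertain.

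HTRA1, a secreted serine protease that cuts fibronectin and proteoglycans, stood at 225, 107 and 192 CPM in early luteal and 190, 193 and 266 CPM in post-ovulatory replicates. Early luteal replicate 2 was the low library and post-ovulatory replicate 3 the high one, with the other 4 close together (log2 fold change -0.31 ± 0.33, SE; edgeR adjusted p = 0.837). Without early luteal replicate 2 the log2 fold change was -0.056.

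Summed CPM overlapped between the stages in 3 of the 4 role groups given here, and not in the ADAM genes. The 11 metalloproteinases summed to 349, 105 and 243 CPM in early luteal and 306, 355 and 289 CPM in post-ovulatory replicates, and the 6 ADAM genes to 234, 328 and 207 CPM against 189, 201 and 203 CPM. In the ADAM sum every early luteal library was above every post-ovulatory one, by as little as 207 against 203 CPM. The 4 plasminogen genes summed to 398, 186 and 195 CPM in early luteal and 383, 340 and 418 CPM in post-ovulatory replicates, and the 4 metalloproteinase inhibitors to 199, 233 and 362 CPM against 214, 376 and 292 CPM.

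Spread between libraries was larger in early luteal than in post-ovulatory tissue for 28 of the 37 genes (75.7%), against 69.1% of all tested genes. The median SD of log2(CPM + 0.5) over the 37 genes was 0.736 in early luteal and 0.383 in post-ovulatory tissue, beside 0.562 and 0.345 over all tested genes. Early luteal replicate 2 was the lowest of the 6 libraries in 17 of the 37 genes, while over all tested genes it was the lowest in 39.3%. The same library was the highest in 5 of the 37 and in 27% of all tested genes, in both respects the largest share of all tested genes of any library. Without it, 18 of the 37 genes stood higher and 19 lower in the early luteal stage, at a median log2 fold change of -0.041, and 7 did not overlap where 28.8% of all tested genes did not. Early luteal replicate 1 was the highest library in 11 of the 37, and over all tested genes in 14.3%. Without early luteal replicate 1 the median log2 fold change was -0.45, and 12 of the 37 did not overlap where 33.9% of all tested genes did not.

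**Figure D4:**
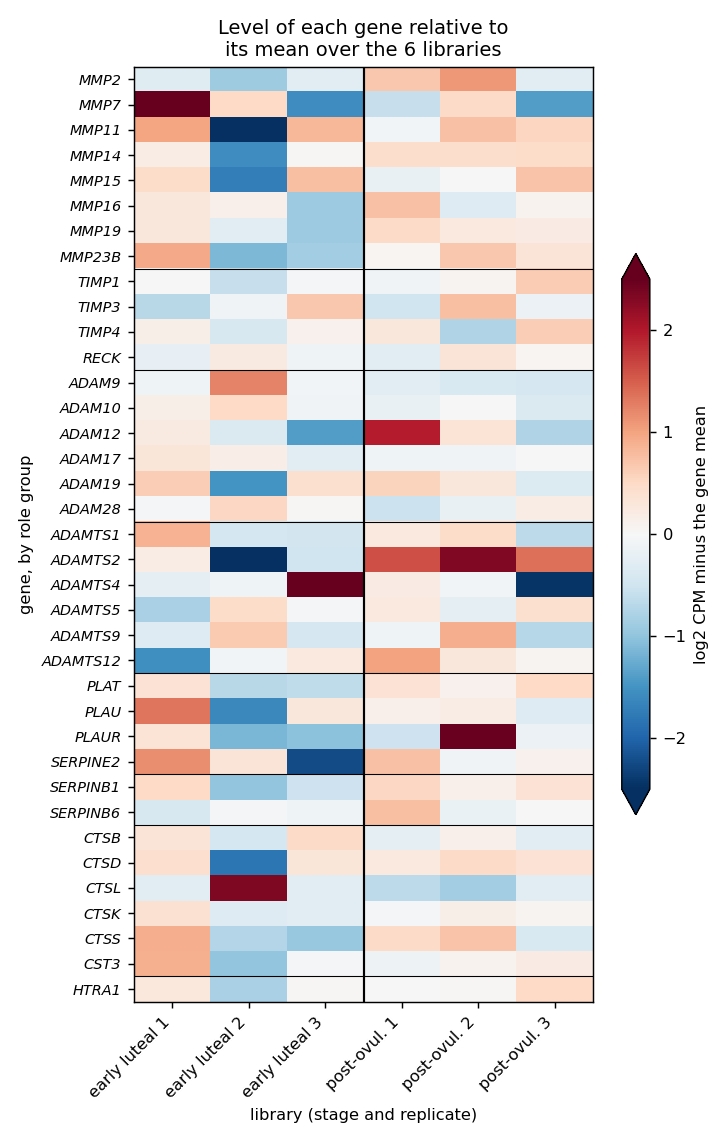
Log2 CPM of each tested gene minus its mean over the 6 libraries, with early luteal libraries left of the black line and post-ovulatory ones right of it, and role groups parted by lines. The column of early luteal replicate 2 holds the lowest value of 17 of the 37 genes, and MMP7, ADAMTS4 and PLAUR each owe their highest value to a single library.

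Other genes of the same pathways were taken from 4 lists of 71 further metalloproteinases, ADAM and ADAMTS genes, serpins, cathepsins, cystatins and surface proteases. Of these, 65 had a row, 52 were tested, 0 passed the threshold in edgeR in either direction, and 18 stood higher and 34 lower in early luteal tissue (median log2 fold change -0.21). At an unadjusted p under 0.05 stood 5, of which 3 were higher and 2 lower, where all tested genes gave 3.57% higher and 3.54% lower. DESeq2 called 2 of them, MMP24 and SERPINH1, while it called 0.986% of all genes.

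MMP24, a membrane-type metalloproteinase, stood at 5.67, 13.7 and 54.4 CPM in early luteal and 0.447, 2.15 and 1.60 CPM in post-ovulatory replicates. The stages did not overlap, and early luteal replicate 3 was far above the rest (log2 fold change 4.15 ± 0.96, SE; edgeR adjusted p = 0.560; DESeq2 adjusted p = 0.000378).

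SERPINH1, a serpin without protease-inhibiting activity that is the collagen chaperone of the endoplasmic reticulum, stood at 143, 76.8 and 109 CPM in early luteal and 480, 327 and 311 CPM in post-ovulatory replicates. The gap between the stages was wide in every library (log2 fold change -1.77 ± 0.33, SE; edgeR adjusted p = 0.503; DESeq2 adjusted p = 0.000771), and the summed stromal markers were lower in all early luteal libraries as well. Within post-ovulatory tissue SERPINH1 was highest in replicate 1 and the stromal sum in replicate 2. ADAMTS6, a secreted ADAMTS protease, stood at 66.5, 71.9 and 56.5 CPM against 158, 90.1 and 265 CPM, lower without overlap (-1.40 ± 0.39; edgeR adjusted p = 0.632). DPP4, a surface dipeptidyl peptidase, stood at 3.74, 17.7 and 15.2 CPM against 2.23, 4.93 and 4.80 CPM and overlapped (1.61 ± 0.66; edgeR adjusted p = 0.685).

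By position, 39 of the 40 genes matched a RefSeq gene of the same symbol on Sscrofa11.1, the build named in the submitters' processing notes, and they lay on 15 chromosomes. MMP1, MMP3 and MMP7 lie in 1 cluster on chromosome 9, with MMP7 187 kb from MMP1 and MMP1 26.8 kb from MMP3, and MMP7 alone was counted in every library. CTSK and CTSS, with no protein-coding gene between them, both had their highest level in early luteal replicate 1, whereas over the 3 post-ovulatory libraries CTSK ranged 1.13-fold and CTSS 2.13-fold.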

How the data were processed

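Per the labels' protocols, stranded poly(A) libraries of ampulla RNA (KAPA kit) were read in pairs on a NextSeq2000. FastQC 0.11.4, Trim Galore, STAR and Sscrofa11.1 are named in the submitters' processing notes. A counting tool, strand setting or annotation release is not given in the sources used here; overlapping, antisense and near-identical genes are therefore uncertain. The authors deposited whole-number counts for each Ensembl gene. As the header of their table lacks a tab, its 6 columns were read by position and assigned by the sequence of header words, 1 of which drops a letter of its sample's label. Symbols were looked up for 15623 Ensembl identifiers.

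Stages were compared with edgeR 4.0.16 in R 4.3.3 (quasi-likelihood test, robust, TMM scaling, filterByExpr, two-sided) on all 6 libraries, with Benjamini-Hochberg adjustment over the 17920 genes that passed the filter. SE is |log2 fold change| divided by the square root of F. CPM is the count over the TMM-scaled library total, times 1e6; levels were not compared between genes, for lack of transcript lengths. Values in every library are given for genes with an unadjusted p under 0.05, genes without overlap and the 2 most abundant of each role group, and also for further genes, chosen after their values were seen. From the pathway lists, genes with an unadjusted p under 0.05 are named, except 1 that is not reported here. The genes and lists were chosen with earlier results of these data known. Planned ratios of MMP2 and MMP14 to TIMP2 could not be computed. The scripts were tested on simulated data. Alternatives were 3 other scalings, 2 other filters, a block for the replicate number, leaving out each library, DESeq2 1.42.0, and limma 3.58.1 voom with and without quality weights.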

Additional observations from a re-analysis of the deposited data

How the results depend on the processing

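No alternative called any of the genes of the group at an adjusted p of 0.05. Over all genes, where edgeR called 0 (1275 at an unadjusted p under 0.05), 8 were called with no filter on low counts, 9 by limma voom with sample quality weights and 175 by DESeq2. Leaving out each library in turn gave 5 to 12 of the 37 genes without overlap, where 24.3% to 33.9% of all tested genes did not overlap, and a median log2 fold change of -0.45 to -0.041. Signs turned in 5 of the 18 genes that the rule named, with log2 fold changes over the libraries left out of -0.51 to 0.38 for TIMP3, -0.52 to 0.26 for ADAMTS1, -0.55 to 0.076 for ADAMTS5, -0.37 to 0.91 for PLAU and -0.50 to 0.43 for CST3. Signs also turned by limma voom for CST3 (-0.11) and with sample quality weights for TIMP3 (0.16); the cause was not tested. The log2 ratio of PLAT to SERPINE2 differed by -0.99 to 0.47 over the libraries left out. Deviations from the stage means correlated at 0.052, -0.082 and 0.13 between same-numbered libraries. Differently numbered libraries of the 2 stages gave -0.163 to 0.0628. With 3 libraries per stage these values cannot show whether the numbers pair libraries. With the replicate number as a block 0 genes of the group and 0 of all genes were called, the median was -0.30, and ADAMTS1 (-0.020) and CST3 (-0.12) turned sign. Depth limits what can be said of MMP1, MMP3 and MMP9, and for ADAMTS2 only of the library with a count of 0, early luteal replicate 2. CTSL had 25, 76 and 24 counts in early luteal and 16, 8 and 49 in post-ovulatory replicates, too few to tell 1.60 from 1.57 CPM. Counts were also low in single libraries of other genes, such as ADAMTS4 (5 in post-ovulatory replicate 3) and MMP16 (6 in post-ovulatory replicate 2).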
